A study of Mus musculus with 24 samples.

Results

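The endothelium and pericytes of the blood-brain barrier were followed through 10 genes of the 24972 in the expression tables. They were chosen by symbol: Cldn5, Pecam1, Flt1, Slco1a4, Abcb1a, Slc2a1, Mfsd2a and Ly6c1 for the endothelium, and Pdgfrb and Rgs5 for pericytes. Abcb1a was included because it encodes P-glycoprotein, an efflux pump that carries morphine out of the brain. Poly(A) RNA was sequenced from the medial prefrontal cortex (mPFC) of mouse offspring killed on postnatal day 21 (P21), in 24 libraries. The 4 groups of 6 libraries were female MO, female SAL, male MO and male SAL offspring, where MO stands for maternal morphine and SAL for maternal saline. All offspring were wild-type B6D2F1/J hybrids from DBA/2J males bred to C57BL/6J females. Dams received morphine sulfate under the skin at 10 mg/kg each day, or the same volume of saline, beginning 1 week ahead of gestation and continuing to weaning on P21; the dose was built up over the first days, and the pups themselves were not injected.

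Brains were taken without perfusion, so blood remained in the vessels. Small litters had been merged soon after birth, and the study took 1 offspring of each sex from a litter, so that male and female libraries share litters that are not identified here. In units of 1e6, normalized sums were 14.7 to 15.5 in the female table and 15.5 to 15.97 in the male table, and the step between low values puts depth at about 13.3 to 17.2 in females and 13.5 to 20.2 in males, in the same unit of reads. Pearson correlations between libraries were 0.942 to 0.993 in females and 0.982 to 0.995 in males. The word combined stood in the column header of 4 female MO, 4 female SAL, 2 male MO and 1 male SAL libraries, and what was combined is not given in the sources used here. The neuronal marker Snap25 had 32531 ± 2331 normalized counts in female MO and 34949 ± 2640 in female SAL, and 36955 ± 1868 in male MO and 36719 ± 1884 in male SAL (SD, n = 6 each).

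Capillaries of the brain are lined by endothelial cells sealed to each other by tight junctions, so that most solutes cross only through carriers or not at all. Efflux pumps on the blood side return many drugs, opioids among them, to the blood, and a low rate of vesicle transport across the cell completes the barrier. Pericytes share the basement membrane of these capillaries and keep the endothelium in its barrier state during development. These cells are a minority of cortical tissue, and in RNA from whole tissue fewer cells of a type and less RNA per cell cannot be told apart.

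The sequence before the start site is shown for Flt1, Rgs5, Cldn5 and Mfsd2a, whose RefSeq and GENCODE start sites coincide. Each line holds the 250 bases upstream of the start in the direction of transcription, from RefSeq on GRCm38.p6. Flt1 is read from chr5:147726012-147726261 on the reverse strand, Rgs5 from chr1:169655251-169655500 on the forward strand, Cldn5 from chr16:18776597-18776846 on the forward strand and Mfsd2a from chr4:122961189-122961438 on the reverse strand. Capitals mark matches, on either strand, to 7 motifs searched: the GC box GGGCGG, the ETS core CCGGAA, the hypoxia element ACGTG, the TCF/LEF element CTTTGA, the forkhead element GTAAACA, the TATA box TATAAA and the SOX element ACAATG.
Flt1: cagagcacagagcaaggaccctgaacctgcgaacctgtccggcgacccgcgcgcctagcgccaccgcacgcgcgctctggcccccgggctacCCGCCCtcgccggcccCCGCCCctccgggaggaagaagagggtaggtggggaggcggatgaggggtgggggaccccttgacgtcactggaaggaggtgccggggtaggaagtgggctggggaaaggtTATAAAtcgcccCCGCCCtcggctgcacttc
Rgs5: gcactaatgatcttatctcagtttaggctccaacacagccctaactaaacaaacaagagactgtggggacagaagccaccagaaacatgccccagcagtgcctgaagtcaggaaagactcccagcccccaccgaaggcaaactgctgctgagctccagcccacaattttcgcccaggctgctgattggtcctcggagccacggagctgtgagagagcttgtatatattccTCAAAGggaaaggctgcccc
Cldn5: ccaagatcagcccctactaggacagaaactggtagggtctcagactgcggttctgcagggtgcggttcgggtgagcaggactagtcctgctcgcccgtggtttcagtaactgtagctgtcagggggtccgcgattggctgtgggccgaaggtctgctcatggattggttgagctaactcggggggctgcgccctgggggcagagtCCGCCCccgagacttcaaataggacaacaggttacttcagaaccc
Mfsd2a: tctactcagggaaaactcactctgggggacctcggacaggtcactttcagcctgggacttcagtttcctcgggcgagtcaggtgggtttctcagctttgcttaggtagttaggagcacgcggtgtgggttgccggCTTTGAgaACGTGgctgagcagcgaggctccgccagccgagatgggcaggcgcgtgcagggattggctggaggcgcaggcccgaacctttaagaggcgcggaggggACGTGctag

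The Flt1 window had the highest GC content of those shown, 70.4%, with GC boxes 158, 142 and 19 bases before the start and a TATA box at 31 bases. The Rgs5 window had 53.6% GC and a TCF/LEF element 20 bases before the start, the motif bound by the factors that carry Wnt signals into the nucleus. The Cldn5 window (59.6% GC) held a GC box at 45 bases, and the Mfsd2a window (61.6% GC) held hypoxia elements at 107 and 9 bases and a TCF/LEF element at 115 bases. The median over the 32851 promoters of the table was 52.4% GC.

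Of the 10 genes, 8 had a promoter entry. A GC box was present in 3 of the 8 (Cldn5, Flt1 and Slc2a1) and in 32.7% of all promoters of this length, and a TCF/LEF element in 3 of the 8 (Abcb1a, Mfsd2a and Rgs5) and in 13.8% of all promoters. The hypoxia element stood in Mfsd2a and Slc2a1 (16.6% of all promoters), the TATA box in Flt1 and Ly6c1 (12.4%), the forkhead element in Abcb1a (3.17%) and the SOX element in Slco1a4 (10.7%). The string searched as the ETS core, CCGGAA, was in 0 of the 8 windows and in 12.03% of all promoters. Other forms of the motif of the ETS family, to which the endothelial factor Erg belongs, were not searched. The count therefore does not show that ETS sites were absent. The RefSeq start of Abcb1a lies 92986 bases upstream of the GENCODE start used for its coordinates, so the elements counted for Abcb1a are far from that start. A match is a description of the letters only.

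On a scale per kb of the longest coding transcript, the level order of the genes was the same in both tables: Ly6c1, Rgs5, Cldn5, Slc2a1, Mfsd2a, Slco1a4, Flt1, Abcb1a, Pecam1 and Pdgfrb. The mean level of Ly6c1 was 820 ± 130 normalized counts per kb in females and 758 ± 51.8 in males (SD, n = 12 libraries each), and that of Pdgfrb 53.3 ± 8.69 in females and 51.6 ± 8.21 in males. The ranges of Slc2a1 and Mfsd2a did not overlap in either table, nor did those of Slco1a4 and Flt1. Cldn5 and Slc2a1 were the neighbours least apart in males, where Cldn5 was above Slc2a1 in 7 of 12 libraries. These levels are relative within a table, since the authors normalized the male and female tables separately.

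In female MO mPFC all 10 genes had a higher mean than in female SAL mPFC, by log2 fold changes of 0.04 to 0.33 with a median of 0.17. Over all 16717 genes tested in females the median log2 fold change was 0.00 and 50.5% of genes were above 0. In males 4 of the 10 genes were above 0, with a range of -0.05 to 0.09 and a median of -0.01, against 49.8% of the 16662 genes tested. No gene passed an adjusted p of 0.05 in limma with Benjamini-Hochberg adjustment, which holds for the 10 genes described and for all genes tested in either table (0%). At an unadjusted p under 0.05, 3 of the 10 genes were counted in females (Pecam1, Flt1 and Rgs5, all higher in MO), beside 2.93% of all genes (1.81% higher in MO), and 0 of the 10 in males, beside 2.85% of all genes (1.52% lower in MO). The values of MO and SAL overlapped for every gene in both tables.

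**Figure D1:**
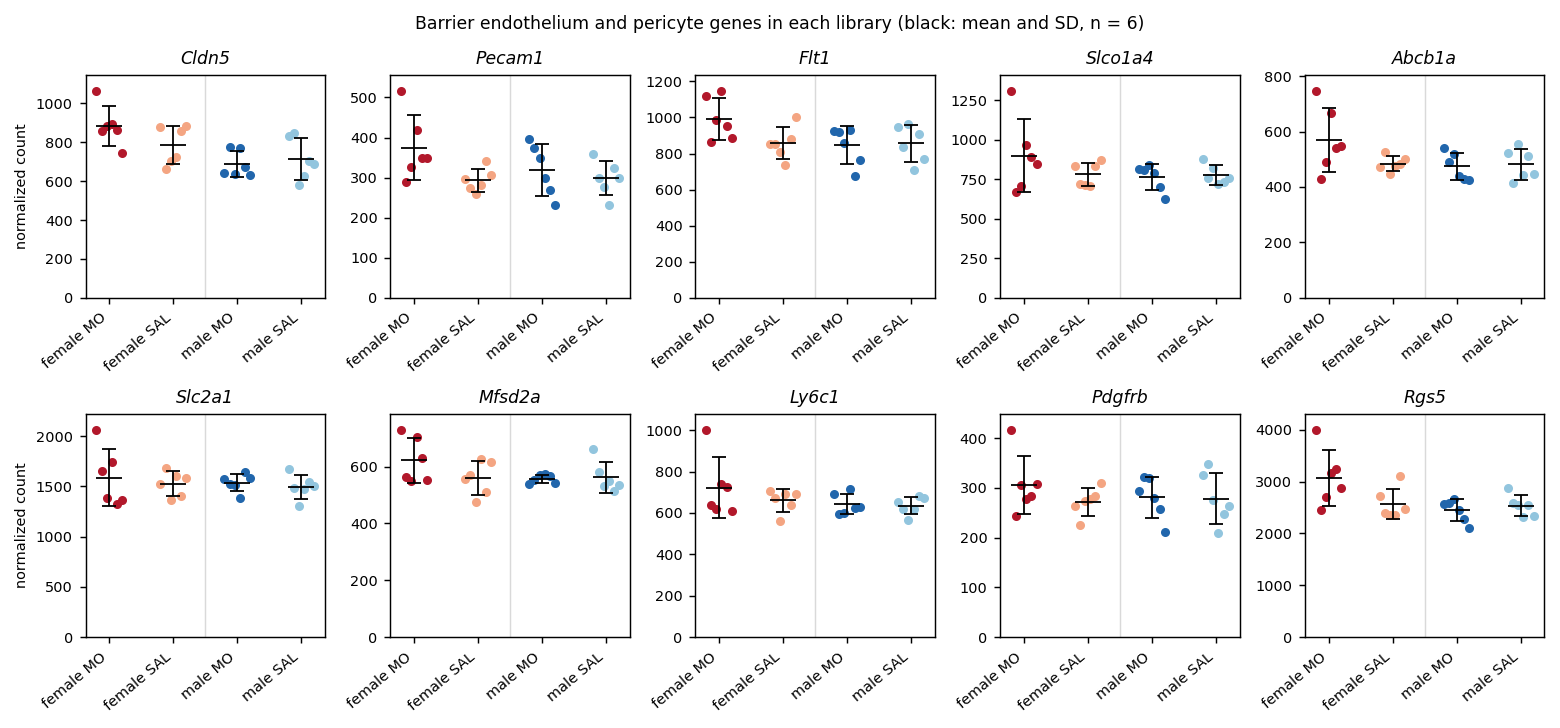
Normalized counts of the 10 genes in each of the 24 libraries, a panel for each gene, with female MO, female SAL, male MO and male SAL from left to right on the horizontal axis and normalized count from 0 on the vertical axis; points are libraries and black marks are the mean and SD of 6. Female MO means stand above female SAL means in all 10 panels, and the points of the groups overlap in every panel.

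Cldn5 encodes claudin-5, the main sealing protein of brain endothelial tight junctions (chromosome 16, 18776847 to 18778262, forward strand, GRCm38, a single exon). The lowest, median and highest normalized counts were 746, 872 and 1064 in female MO and 664, 793 and 883 in female SAL. In males they were 634, 660 and 776 in MO and 578, 697 and 846 in SAL. Above the highest SAL library lay 2 female MO libraries and 0 male MO libraries. The mean was 885 ± 102 in female MO and 785 ± 98.7 in female SAL (SD, n = 6 each), a log2 fold change of 0.17 (95% interval -0.03 to 0.37, 2-sided exact permutation p = 0.0801). In males the log2 fold change was -0.04 (95% interval -0.23 to 0.15, exact permutation p = 0.725).

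Pecam1 encodes the adhesion molecule CD31, found at contacts between endothelial cells of all vessels (chromosome 11, 106654217 to 106750628, reverse strand, 16 exons in the longest coding transcript). Its lowest, median and highest normalized counts were 288, 350 and 516 in female MO and 259.5, 289 and 340.2 in female SAL. They were 231, 323 and 397 in male MO and 233, 299 and 358 in male SAL. In females 4 of the 6 MO libraries lay above the highest SAL library, and in males 2 of 6. The female log2 fold change of 0.33 was the largest of the 10 (SE 0.12, 95% interval 0.07 to 0.59, 2-sided exact permutation p = 0.0260, limma p = 0.0148 before and 0.918 after Benjamini-Hochberg adjustment). The male log2 fold change was 0.09 (95% interval -0.17 to 0.34, exact permutation p = 0.578). The smallest p that 6 against 6 libraries allow is 0.00216.

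Flt1 encodes VEGF receptor 1, a receptor that binds VEGF and limits how much of it reaches VEGF receptor 2 (chromosome 5, 147561604 to 147726011, reverse strand, 30 exons). Normalized counts had a lowest, median and highest value of 865, 970 and 1146 in female MO and 735, 854 and 1004 in female SAL. The corresponding values were 675, 891 and 931 in male MO and 710, 873 and 961 in male SAL. All 6 female MO libraries were above the mean of female SAL, and 2 of them were above its highest library. Females had a log2 fold change of 0.21 (SE 0.09, 95% interval 0.03 to 0.40, 2-sided exact permutation p = 0.0519). In males it was -0.02 (95% interval -0.20 to 0.17, exact permutation p = 0.851).

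Slco1a4 encodes Oatp1a4, a carrier of organic anions in the membranes of mouse brain endothelium (chromosome 6, 141805440 to 141856199, reverse strand, 17 exons). It had 672, 869 and 1309 normalized counts (lowest, median and highest) in female MO and 708, 778 and 870 in female SAL. It had 628, 799 and 839 in male MO and 718, 756 and 876 in male SAL. The range of female MO enclosed that of female SAL. The female log2 fold change was 0.17 (95% interval -0.11 to 0.45, exact permutation p = 0.310) and the male one -0.03 (95% interval -0.18 to 0.12, exact permutation p = 0.742).

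Abcb1a encodes the P-glycoprotein of mouse brain endothelium, which takes morphine among many other drugs (chromosome 5, 8660077 to 8748575, forward strand, 28 exons). The lowest, median and highest normalized counts were 429, 544 and 746 in female MO and 449, 479 and 527 in female SAL. In male MO they were 425, 465 and 542, and in male SAL 414, 478 and 555. Of the female MO libraries 4 lay above the highest SAL library and 1 below the lowest, while in males the MO libraries lay within the range of SAL. Means were 570 ± 117 in female MO and 484 ± 26.7 in female SAL, and 474 ± 49.99 in male MO and 482 ± 55.03 in male SAL (SD, n = 6 each). The log2 fold change was 0.21 in females (95% interval -0.03 to 0.45, exact permutation p = 0.123) and -0.02 in males (95% interval -0.19 to 0.15, exact permutation p = 0.786), so a fold above 1.37 in females, or above 1.11 in males, lay outside the interval.

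Its paralog Abcb1b, the P-glycoprotein more abundant in other mouse tissues, had far lower values of 26.6 ± 9.47 normalized counts in female MO and 24.7 ± 3.50 in female SAL, and 20.6 ± 5.33 in male MO and 20.7 ± 3.68 in male SAL. Of the 85-base stretches of Abcb1a transcripts, 9.83% also occur in Abcb1b or Abcb4, so the division of reads between these genes is uncertain to that extent. Of 9 efflux pumps of the ABC family without Abcb1a, Abcb1b among them, 4 were above 0 in females, with a median log2 fold change of -0.06, and 3 in males, with a median of -0.03 (without PFC1, 2 in females, with a median of -0.06). None of the 9 had an unadjusted p under 0.05 in either table.

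Slc2a1 encodes Glut1, which brings glucose across the barrier (chromosome 4, 119108711 to 119137983, forward strand, 10 exons). Its lowest, median and highest normalized counts were 1325, 1521 and 2057 in female MO and 1361, 1557 and 1680 in female SAL. They were 1383, 1548 and 1640 in male MO and 1301, 1494 and 1672 in male SAL. The median of female MO was below that of female SAL although its mean was above. The log2 fold change was 0.04 in both tables, the smallest of the 10 in females (95% interval -0.18 to 0.26, exact permutation p = 0.725; in males -0.08 to 0.16, exact permutation p = 0.530).

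Mfsd2a encodes a carrier of lysophosphatidylcholine that brings docosahexaenoic acid into the brain and holds down vesicle transport across the endothelium (chromosome 4, 122946850 to 122961188, reverse strand, 14 exons). The lowest, median and highest normalized counts were 550.1, 598 and 727 in female MO and 475, 564 and 626 in female SAL. In male MO they were 538, 559 and 572, the narrowest spread of any group for any of the 10 genes (coefficient of variation 2.71%), and in male SAL 514, 541 and 661. Groups overlapped in both tables. Its log2 fold change was 0.15 in females (95% interval -0.05 to 0.35, exact permutation p = 0.160) and -0.01 in males (95% interval -0.13 to 0.11, exact permutation p = 0.898).

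Ly6c1 encodes a small surface protein anchored by a lipid and carried by endothelial cells of the mouse brain (chromosome 15, 75044018 to 75048830, reverse strand, 4 exons). The lowest, median and highest normalized counts were 612, 682 and 999 in female MO and 561, 683 and 708 in female SAL. In males they were 596, 626 and 715 in MO and 567, 638 and 682 in SAL. The medians of female MO and female SAL were almost equal. For Ly6c1 the log2 fold change was 0.11 in females (95% interval -0.12 to 0.34, exact permutation p = 0.435) and 0.01 in males (95% interval -0.11 to 0.14, exact permutation p = 0.827). Its neighbour Ly6c2, carried by monocytes, had at most 9.004 normalized counts in any female library and 1.99 in any male library. Ly6c1 shares 14.8% of its 85-base stretches with Ly6c2 or Ly6a, so its reads are uncertain to that extent.

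Pdgfrb encodes the receptor through which endothelial PDGF-B recruits pericytes (chromosome 18, 61045150 to 61085061, forward strand, 24 exons). It had 245, 295 and 416 normalized counts (lowest, median and highest) in female MO and 225, 275 and 310.4 in female SAL. It had 212, 287 and 322 in male MO and 209, 269.9 and 348 in male SAL. A single female MO library lay above the highest SAL library. For Pdgfrb the log2 fold change was 0.16 in females (95% interval -0.09 to 0.40, exact permutation p = 0.247) and 0.02 in males (95% interval -0.23 to 0.27, exact permutation p = 0.903).

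Rgs5 encodes a regulator that shortens signaling by G proteins and is abundant in brain pericytes (chromosome 1, 169655501 to 169695813, forward strand, 5 exons). The lowest, median and highest normalized counts were 2448, 3024 and 3987 in female MO and 2349, 2440.1 and 3101 in female SAL. They were 2099, 2519 and 2659 in male MO and 2322, 2545 and 2868 in male SAL. In females 3 MO libraries lay above the highest SAL library and 5 above the SAL mean, and in males 0 lay above the highest. The log2 fold change was 0.25 in females (SE 0.11, 95% interval 0.02 to 0.48, 2-sided exact permutation p = 0.0563) and -0.05 in males (95% interval -0.18 to 0.08, exact permutation p = 0.478). The pericyte potassium channel subunit Kcnj8 had 55.4 ± 14.1 normalized counts in female MO and 50.9 ± 8.10 in female SAL, with an exact permutation p of 0.563 (n = 6 each).

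**Figure D2:**
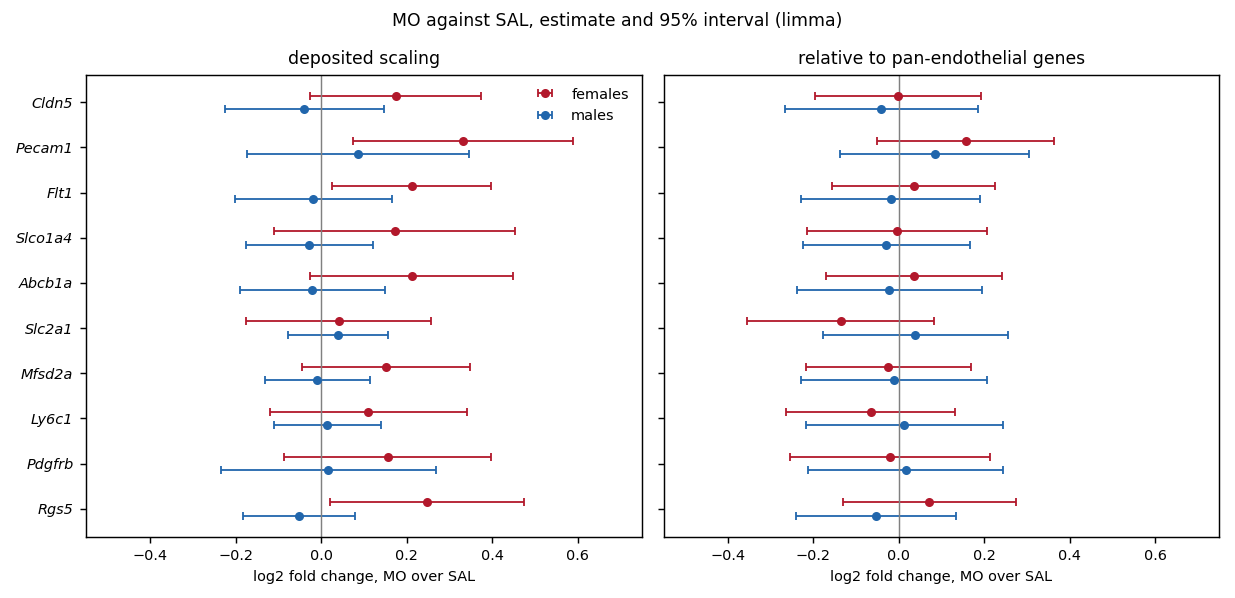
Log2 fold change of MO over SAL with its 95% interval from limma on the horizontal axis, females in red and males in blue, for each of the 10 genes on the vertical axis; the left panel uses the deposited scaling and the right panel subtracts the mean log2 level of 18 pan-endothelial genes in each library. On the left the female estimates run from 0.04 to 0.33 and the male ones from -0.05 to 0.09; on the right 4 of the 10 are above 0 in each table.

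Over both tables together, with sex as a term, all 10 genes were above 0 with a median log2 fold change of 0.08, beside 50.5% of the 17303 genes tested. Pecam1 was the 1 gene of the 10 at an unadjusted p under 0.05 (4.72% of all genes), with a log2 fold change of 0.21 (95% interval 0.02 to 0.40, permutation within sex p = 0.0512, limma adjusted p = 0.847). The difference of the effects, female minus male, was above 0 for all 10 genes, beside 48.7% of all genes, with a median of 0.21. It had an unadjusted p under 0.05 for 1 of the 10, Rgs5, beside 2.1% of all genes: the difference was 0.30 on the log2 scale (SE 0.13, 95% interval 0.03 to 0.56, limma adjusted p = 1.00). For Pecam1 it was 0.25 (95% interval -0.13 to 0.63) and for Abcb1a 0.23 (95% interval -0.06 to 0.53). Without the female MO library PFC1 the difference was above 0 for 8 of the 10 genes, with Ly6c1 at -0.002 and Slc2a1 at -0.08. The share of all genes above 0 in that fit was not counted. No gene of the tables passed an adjusted p of 0.05 for this difference in limma, so the female and male effects were not shown to differ.

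A single female MO library, PFC1, was the highest of the 12 female libraries for 9 of the 10 genes, at 0.39 to 0.82 above the female SAL mean on the log2 scale (median 0.61). The exception was Flt1, which was highest in the female MO library PFC3, itself among the top 3 for 9 genes with a median deviation of 0.31. The remaining female MO libraries had median deviations of -0.03 to 0.16. The female SAL library PFC24 was lowest for 4 of the genes (median deviation -0.14). In males the SAL library PFC12 was highest for 4 genes and above the SAL mean for all 10 (median deviation 0.18), and the SAL library PFC18 was below it for all 10 (median deviation -0.12).

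**Figure D3:**
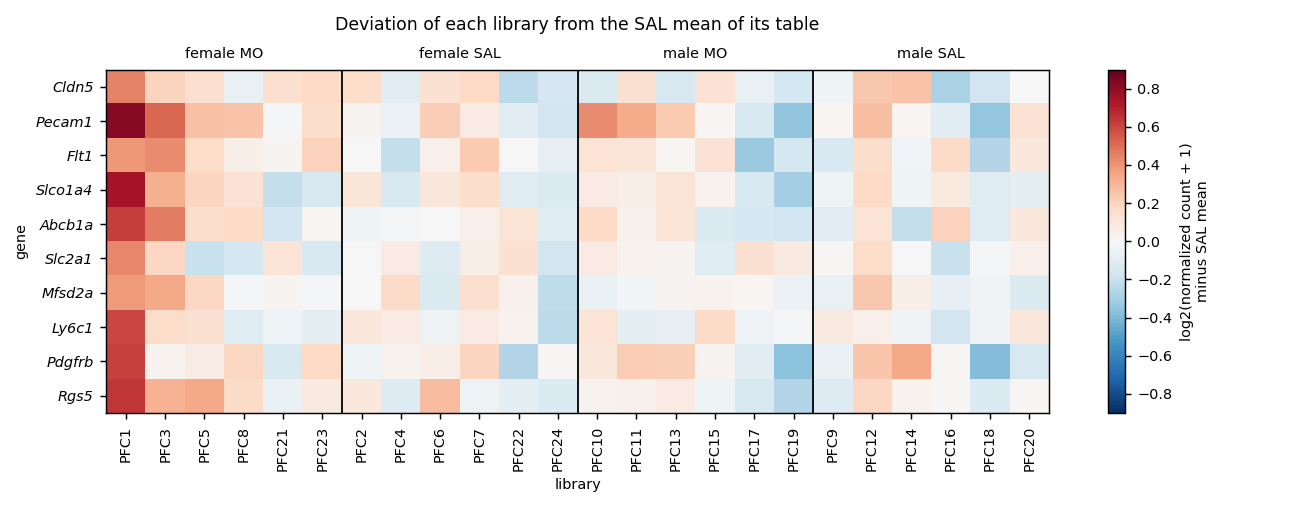
Deviation of every library from the SAL mean of its own table, as log2(normalized count + 1) minus that mean (color, red above and blue below), for the 10 genes on the vertical axis and the 24 libraries on the horizontal axis, grouped as female MO, female SAL, male MO and male SAL. The library PFC1 at the left is red for all 10 genes (0.39 to 0.82) and PFC3 beside PFC1 for all 10 (0.03 to 0.52).

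Without PFC1, 9 of the 10 genes remained above 0 in females, with a median log2 fold change of 0.11, and 1 had an unadjusted p under 0.05. This was Pecam1, at 0.23 (2-sided exact permutation p = 0.0433 over 5 against 6 libraries). The shares of all genes above 0 or at such a p without PFC1 were not counted, so these counts have no background beside them. The values without PFC1 were 0.18 for Flt1 (exact permutation p = 0.0909), 0.17 for Rgs5 (exact p = 0.115), 0.13 for Abcb1a (exact p = 0.240), 0.12 for Cldn5 (exact p = 0.219) and 0.10 for Mfsd2a (exact p = 0.294). Ly6c1 was at 0.01, Pdgfrb and Slco1a4 were at 0.06, and Slc2a1 was at -0.04. In this library other cell types were high as well. Its summed normalized counts were 308444 over 10 oligodendrocyte genes, against 176463 in the next female library, 178917 over 10 astrocyte genes, against 147540, and 12124 over 10 microglial genes, against 8936. The part of tissue composition in the female values was not tested.

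Markers of other cells were compared in the same way. All 10 oligodendrocyte genes were above 0, with a median log2 fold change of 0.28 and sums of 47532 to 308444 in MO and 32104 to 140672 in SAL; without PFC1 5 of 10 were above 0 and that median was 0.00. All 10 astrocyte genes were above 0 (median 0.22, sums of 90052 to 178917 in MO and 85872 to 111548 in SAL), while 1 of 10 neuronal genes was (median -0.10, sums of 193983 to 211550 in MO and 206149 to 225703 in SAL). Without PFC1, 8 of 10 astrocyte genes were above 0 with a median of 0.07, and 0 of 10 neuronal genes with a median of -0.06. Of 11 blood cell genes 10 were above 0, with a median of 0.78 and sums of 4681 to 19178 in MO and 2883 to 10637 in SAL, and without PFC1 8 were above 0 with a median of 0.56. In males the medians were 0.23 for oligodendrocyte, 0.00 for astrocyte, 0.00 for neuronal and 0.39 for blood cell genes. The part of these cells in the values of the 10 genes was not tested.

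Columns with and without the word combined in their header gave different female values for some genes, in a comparison chosen after the data had been seen. Within the 4 MO and 4 SAL columns so marked, Abcb1a was at a log2 fold change of 0.36, Rgs5 at 0.31, Slco1a4 at 0.29, Pecam1 at 0.40 and Cldn5 at 0.08. The columns not so marked were fewer, only PFC21 and PFC23 in MO and PFC22 and PFC24 in SAL. Within them Abcb1a was at -0.09, Rgs5 at 0.11, Slco1a4 at -0.06, Pecam1 at 0.20 and Cldn5 at 0.35. The difference between the sets was not tested. All 10 genes were above 0 in the marked columns and 8 of 10 in the others. The marked MO columns included PFC1 and PFC3, and the shares of all genes above 0 within these sets were not counted. Pecam1, Flt1 and Rgs5 were above 0 in both sets.

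When each library was set to the mean log2 level of 18 pan-endothelial genes, none of them among the 10, the female values centred on 0: 4 of 10 genes were above 0, beside 16.5% of all genes, and their median was -0.00. Pecam1 was at 0.16 (95% interval -0.05 to 0.36) and Slc2a1 at -0.14 (95% interval -0.35 to 0.08), the ends of the range. Under this scaling the median of all genes was -0.17 in females, and 0 of the 10 genes had an unadjusted p under 0.05, beside 10.5% of all genes; the smallest adjusted p among the 10 in limma was 0.396. In males 4 of 10 genes were above 0, beside 49.2% of all genes, with a median of -0.01, and 0 had an unadjusted p under 0.05, beside 1.45% of all genes.

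The pan-endothelial genes themselves were above 0 in 16 of 18 cases in females (median log2 fold change 0.19) and in 9 of 18 in males (median -0.00). At an unadjusted p under 0.05, 4 of the 18 were higher in female MO, beside 1.81% of all genes. Without PFC1, 16 of 18 were above 0 with a median of 0.12, and of the 4 Podxl and Eng kept such a p. The 4 were Podxl, which encodes the sialomucin podocalyxin of the luminal surface, Eng, which encodes the TGF-beta coreceptor endoglin, Ptprb, a phosphatase acting on the receptor Tie2, and Kdr, which encodes VEGF receptor 2. Podxl had 503 ± 72.1 normalized counts in female MO and 402 ± 30.7 in female SAL (SD, n = 6 each), and all 6 MO libraries lay above the SAL mean (log2 fold change 0.31, limma adjusted p = 0.918). Cdh5, which encodes the VE-cadherin of endothelial junctions, had 274 ± 72.2 in female MO and 241 ± 26.6 in female SAL (exact permutation p = 0.383), and 238 ± 55.9 in male MO and 249.995 ± 38.7 in male SAL (exact permutation p = 0.626).

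**Figure D4:**
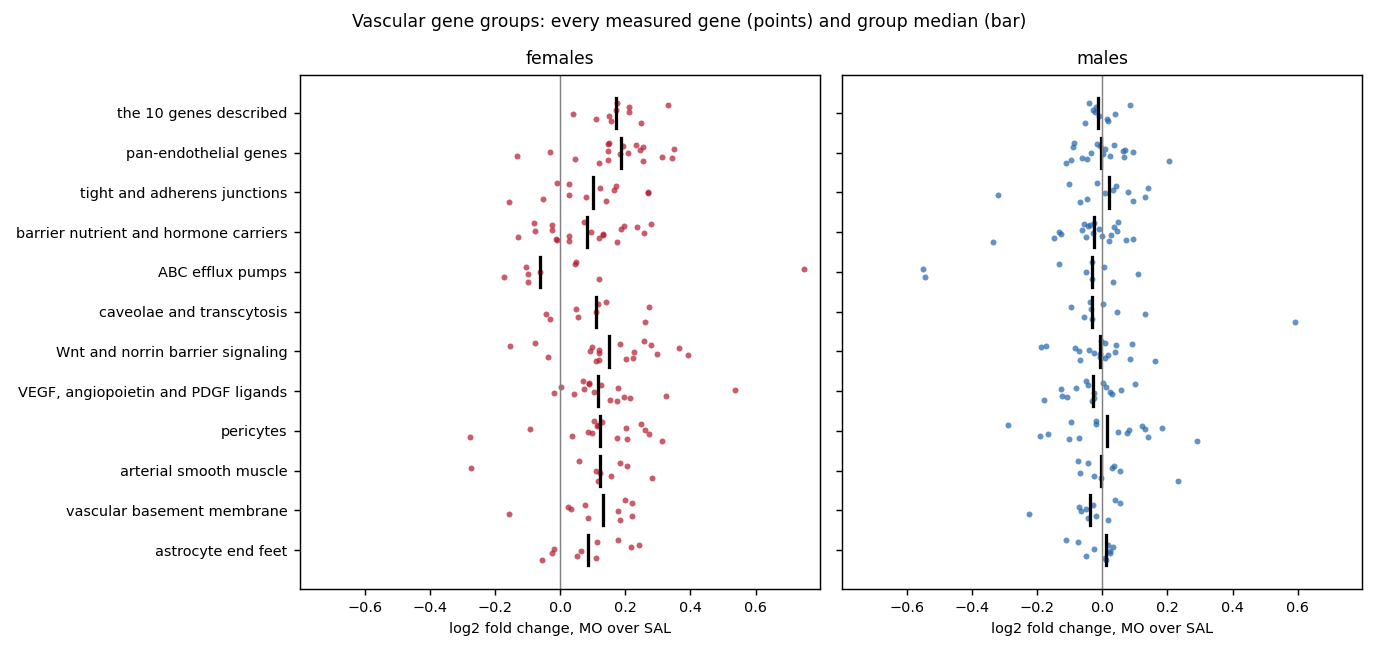
Log2 fold change of MO over SAL (horizontal axis) for every measured gene of 12 vascular groups (vertical axis), females in the left panel and males in the right; each point is a gene and each black bar the group median. In females the medians are 0.17 for the 10 genes described, 0.19 for pan-endothelial genes and -0.06 for ABC efflux pumps, and in males all 12 medians lie between -0.04 and 0.02.

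Barrier genes around the 10 were read in groups, with no gene past an adjusted p of 0.05 in limma in either table. Of the tight and adherens junction genes 9 of 12 were above 0 in females (median 0.10) and 7 of 12 in males (median 0.02), and none had an unadjusted p under 0.05. Without PFC1, 9 of 12 junction genes were above 0 in females, with a median of 0.02. Of 20 carriers of nutrients and hormones 13 were above 0 in females (median 0.08) and 7 in males (median -0.03), and without PFC1 15 were above 0 in females (median 0.05). The 1 carrier of the 20 at an unadjusted p under 0.05 was Slc16a1, higher in female MO, beside 1.81% of all genes. Slc16a1 encodes the lactate and ketone carrier Mct1. It had 1048 ± 100 normalized counts in female MO and 864 ± 96.8 in female SAL (log2 fold change 0.28, limma adjusted p = 0.918), and a log2 fold change of -0.06 in males. Without PFC1 Slc16a1 was at 0.27 in females and kept an unadjusted p under 0.05 in limma. Genes of caveolae and transcytosis were above 0 in 7 of 9 cases in females (median 0.11) and in 4 of 9 in males (median -0.03), and without PFC1 in 6 of 9 in females (median 0.05).

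Wnt signaling induces and keeps the barrier state of brain endothelium. Of its 18 genes 15 were above 0 in females (median 0.15) and 8 in males (median -0.01), and 4 were higher in female MO at an unadjusted p under 0.05, beside 1.81% of all genes. Lef1, which encodes a transcription factor of the pathway, had 81.6 ± 14.5 normalized counts in female MO and 65.7 ± 6.995 in female SAL (log2 fold change 0.30), and all 6 MO libraries were above the SAL mean. The Wnt receptor gene Fzd6 was at 0.36, Apcdd1, which encodes a Wnt inhibitor of brain endothelium, at 0.22, and the ligand gene Wnt7a at 0.26. In males Lef1 was at -0.01, Fzd6 at -0.08, Apcdd1 at 0.01 and Wnt7a at -0.00. Without PFC1, 14 of the 18 genes were above 0 in females with a median of 0.09, and 2 had an unadjusted p under 0.05: Fzd6 at 0.28 and Apcdd1 at 0.14 kept it, while Lef1 and Wnt7a, both at 0.22, did not.

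A list of 16 ligand and receptor genes covered the VEGF, angiopoietin and PDGF systems. It also held Tgfb1, Tgfbr2, Acvrl1, Dll4 and Notch1, which are of other signaling systems. Of the 16 genes, 15 were above 0 in females (median 0.12, and 0.11 without PFC1) and 6 in males (median -0.03). Pericyte genes other than Pdgfrb and Rgs5 were above 0 in 14 of 16 cases in females (median 0.12) and in 8 of 16 in males (median 0.01). Without PFC1, 13 of 16 were above 0 in females, with a median of 0.08. Over all libraries their summed normalized counts ran between 1823 and 2899 in female MO and between 1603 and 2349 in female SAL. The sum of 2899 was that of PFC1, and the next highest female library, at 2349, was SAL. Arterial smooth muscle genes were above 0 in 8 of 9 cases in females (median 0.12, and 0.07 without PFC1) and 4 of 9 in males; their defining marker Acta2 had 158 ± 56.1 normalized counts in female MO and 154 ± 62.9 in female SAL (exact permutation p = 0.846). Of the 10 basement membrane genes 9 were above 0 in females (median 0.13, and 0.06 without PFC1) and 3 in males. The type IV collagen chains Col4a1 and Col4a2 had an unadjusted p under 0.05 in females, beside 1.81% of all genes, with Col4a1 at a log2 fold change of 0.20 and Col4a2 at 0.22. Without PFC1 Col4a2 kept such a p (0.24) and Col4a1 did not (0.18). Genes of astrocyte end feet were above 0 in 7 of 10 cases in females (median 0.09, and 0.01 without PFC1) and 6 of 10 in males.

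The 10 genes tended to vary together from library to library. Of the 45 pairs, 45 had a positive Pearson correlation of deviations from the group means over the 12 female libraries (median 0.65), and 43 without PFC1 (median 0.47). Over the 12 male libraries 36 of 45 were positive (median 0.34). Slco1a4 and Pecam1 gave the highest female value, 0.95, and Slco1a4 and Rgs5 the highest male value, 0.91. The points share a tissue dissection, a library depth and a normalization, and these values are a description. The share of positive correlations among pairs of other genes was not counted, so the counts are not shown to be particular to the 10 genes.

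From the 11783 genes that averaged 50 or more normalized counts in both tables, those most like each of the 10 were ranked by the lower of the female and male correlations over 12 libraries each. The correlations given are the highest of that many, so the selection itself makes them high. Slco1a4 was most like Adgrl4, an endothelial adhesion receptor (0.96 in females, 0.94 in males), and next like Jam2, which encodes a junctional adhesion molecule (0.92 and 0.94), and Fermt2. Pecam1 was most like Cgnl1, which encodes a junction protein (0.95 and 0.89), then Tril and Vcam1. Rgs5 was most like Phka1, Slco1a4 and Tril, and Abcb1a most like Dock1, Adgrf5 and Mboat2. Cldn5 was most like Gpt (0.86 and 0.96), Esam and Cdk2ap1, and Flt1 most like Ccdc85c, Amotl2 and Ctdsp2. For the leading gene of each, the female correlation without PFC1 was 0.92 for Slco1a4, 0.93 for Pecam1 and 0.84 for Rgs5. It was 0.84 for Abcb1a, 0.81 for Cldn5 and 0.88 for Flt1.

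Ly6c1 was most like the metallothionein genes Mt1 (0.91 in females, 0.82 in males) and Mt2 (0.87 and 0.79), with Aifm3 between them. Slc2a1 was most like Apoe (0.74 and 0.72), then Slc27a1 and Camk2n2, the lowest leading values of the 10. Without PFC1 the female correlation of Slc2a1 was 0.52 with Apoe, 0.48 with Slc27a1 and 0.50 with Camk2n2, and that of Ly6c1 was 0.81 with Mt1, 0.69 with Mt2 and 0.41 with Aifm3. Mfsd2a was most like Cyp2d22, Htra1 and 2310022B05Rik, and Pdgfrb most like Dennd2a, Atp2a3 and Nr2e1 (0.84 in females for Nr2e1, and 0.66 without PFC1).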

How the data were processed

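Per the labels and the study's methods, the authors enriched poly(A) RNA from 24 mPFC samples, prepared directional libraries, mapped reads to the mm10 genome (STAR), estimated gene abundance (Salmon) and used DESeq2 for group comparisons. The deposited values, 1 table for each sex, are the authors' normalized counts (a signal that is not whole), and low values were not exact multiples of 1 step, so reads could not be recovered and a count test was not used. The number of reads behind each value is therefore known only approximately, and so is the precision of low genes.

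The 10 genes and the 19 other gene lists were chosen with earlier results of these data known. Values were compared as log2(value + 1), so fold changes of low genes are understated. Genes with a sum under 10 across the libraries of a fit were left out, and all 10 genes passed. MO was compared with SAL in each table with limma 3.58.1 (R 4.3.3, trend) and Benjamini-Hochberg adjustment over all genes kept. Further fits joined both tables with sex as a term, tested the difference of the sex effects, or subtracted the mean of 18 pan-endothelial genes. Single genes were tested with 2-sided exact permutation over 924 relabellings (462 where 1 library was left out) or 100000 draws within sex. Replicates are separate offspring; littermates across sexes were treated as independent.

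Besides the 10 genes, those named were up to 4 of a list and table with the smallest unadjusted p under 0.05, the 3 most like each of the 10, and Abcb1b, Ly6c2, Snap25, Cdh5, Kcnj8 and Acta2. Annotation was GENCODE vM21 on GRCm38 and promoters were RefSeq. The fits were tested on simulated data. Alternatives were pseudocounts of 0.5 and 5, no filter, a mean of at least 10, array weights, scaling to Gapdh and Ppia, a term for combined columns, and leaving out each library.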

Additional observations from a re-analysis of the deposited data

Results flagged for a closer look

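In 2 of the 40 gene and group combinations examined (10 genes in 4 groups of 6), the highest or lowest library stood apart from the other libraries of its group by Dixon's test at 6 samples, where chance gives about 1 in 20. Both were the female MO library PFC1. It had 999 normalized counts of Ly6c1 and 416 of Pdgfrb. Without PFC1 the female log2 fold change was 0.01 for Ly6c1 (exact permutation p = 0.864) and 0.06 for Pdgfrb (exact permutation p = 0.478, 5 MO against 6 SAL libraries).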

How the results depend on the processing

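No paired analysis was possible because the library numbers are not shared between groups and littermates are not given. No alternative gave any of the 10 genes an adjusted p under 0.05 in limma. In females the count above 0 was 9 to 10 of 10 when each library was left out, and Pecam1 was at 0.23 to 0.40 with an unadjusted p under 0.05 in 12 of 12 cases. In those 12 cases Flt1 kept such a p in 8 (not without PFC1, PFC3, PFC4 or PFC24) and Rgs5 in 5 (not without PFC1, PFC3, PFC4, PFC5, PFC7, PFC22 or PFC24). Over both sexes Pecam1 lost it without PFC1, PFC3, PFC4, PFC10, PFC11, PFC18, PFC22 or PFC24. The female minus male difference of Rgs5 lost it without PFC1 (0.22), PFC12 (0.26) or PFC19 (0.26). For fits with a library left out, shares of all genes above 0 or at such a p were not counted.

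In males the count of 4 of the 10 genes above 0 became 2 after scaling to Gapdh and Ppia, which put the median of all genes at -0.03 in males and 0.09 in females. Leaving out each male library gave 3 to 9, with 9 without PFC12 and 7 without PFC19. By sets of columns chosen after seeing the data, the male count was 2 in those not marked combined and 9 in those marked, where 2 MO libraries met 1 SAL library, assumed to vary like the MO ones. There Flt1 turned to 0.26 and Rgs5 to 0.15 in males, and 1 male gene passed an adjusted p of 0.05. In columns not marked combined 5 female genes passed, and in the fit of both sexes together 5 of the 10 genes were above 0. The female columns not so marked were only PFC21 and PFC23 in MO and PFC22 and PFC24 in SAL. Shares of all genes above 0 in these alternatives were not counted, so the counts of the 10 genes have no background beside them.

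Relative to the pan-endothelial level, a mean over 6 such genes gave 7 of 10 above 0 in males and 2 of 10 in females. Leaving out each library gave 2 to 6 in males and 4 to 7 in females (7 without PFC3), and 0 to 13 male genes past an adjusted p of 0.05 (13 without PFC19, 1 without PFC9 and 1 without PFC20). The cause of these changes was not tested. Shares of all genes above 0 in these fits were not counted, so the counts of the 10 genes have no background beside them. With 6 libraries a group, 95% intervals of the 10 genes reached 0.59 in females and 0.34 in males on the log2 scale.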

Other observations

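Markers of meninges and fibroblasts, cells that lie along larger vessels and the brain surface, were also read. Of 11 such genes 1 was above 0 in male MO, with a median log2 fold change of -0.35, and 6 were lower at an unadjusted p under 0.05, beside 1.52% of all genes. Col1a1, a type I collagen chain, had 225 ± 79.4 normalized counts in male MO and 376 ± 173 in male SAL (SD, n = 6 each, log2 fold change -0.69, limma adjusted p = 1.00). Dcn, which encodes the matrix proteoglycan decorin, was at -0.43, the GABA carrier gene Slc6a13 of the meninges at -0.53, and the transcription factor gene Foxd1 at -0.58. In females 10 of the 11 genes were above 0 (median 0.13), and 5 without PFC1 (median -0.02). Their summed normalized counts ran between 2170 and 3563 in male MO and between 3233 and 4782 in male SAL, so the ranges overlapped.

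Of the blood cell genes in females, S100a8 and S100a9, abundant in neutrophils, were at log2 fold changes of 1.76 and 1.88, and Slc4a1, the anion exchanger of red cells, at 1.16, with an adjusted p of 0.918 each in limma. S100a8 had 22.3 ± 35.9 normalized counts in MO and 2.91 ± 1.88 in SAL, and S100a9 had 25.3 ± 41.9 in MO and 3.18 ± 3.02 in SAL (SD, n = 6 each). Without PFC1 S100a8 was at 1.15, S100a9 at 1.251 and Slc4a1 at 1.10. In males Hba-a1 was at 0.67, with 4823 ± 1370 normalized counts in MO and 3320 ± 1811 in SAL. Hbb-bs was at -3.10 in males, with only 4.04 ± 9.88 normalized counts in MO and 40.7 ± 37.7 in SAL. It was the 1 gene below 0 of the 10 blood cell genes tested in males. The globin genes have near-identical copies and their reads are uncertain. Vessel activation genes were above 0 in 8 of 9 cases in females (median 0.14) and 2 of 9 in males (median -0.08), and microglial genes in 10 of 10 in females (median 0.13) and 5 of 10 in males. Without PFC1, 4 of 9 vessel activation genes (median -0.00) and 4 of 10 microglial genes (median -0.00) were above 0 in females. Choroid plexus genes were above 0 in 3 of 7 cases in females and 4 of 7 in males, where Ttr was at 1.11 and Kcnj13 at -0.68 with summed normalized counts of at most 93.3 in MO and 109 in SAL.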
